A study of Mus musculus with 24 samples.

Results

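The mammalian mitochondrion carries its own ribosome, which translates the few proteins that mitochondrial DNA still encodes, all of them core subunits of the oxidative phosphorylation complexes. Its protein shell is encoded in the nucleus by genes named Mrpl (large subunit) and Mrps (small subunit), and the proteins are made in the cytosol and imported. Some of them descend from bacterial ribosomal proteins and others have no bacterial counterpart. White fat cells hold fewer mitochondria than brown fat cells but depend on them for fat synthesis and turnover.

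The 77 mitochondrial ribosomal protein genes described here were measured in epididymal white adipose tissue, the fat depot beside the epididymis, as part of 20212 features in all (12748 named genes and 7464 unnamed probes). The members were the array probes whose accession mapped to a symbol starting with Mrpl or Mrps and a digit, without pseudogenes, that were well above background in the Cy5 channel on at least 12 of 24 arrays. All 78 such protein-coding genes of the RefSeq table had a probe on the array, 100 probes in all, and 98 probes of 77 genes passed. Mrpl21 was above background on 0 of 24 arrays and was not measured. Just outside the threshold lay the second probe of Mrpl39, above background on 11 arrays (6 No NR and 5 Ctrl NR), and just inside lay the dimmer probe of Mrps2, on 14 arrays (9 No NR and 5 Ctrl NR). The other kept probes were above background on 20, 22 or 24 arrays, and 94 of them on all 24. All kept probes had a ratio on every array.

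The mice were C57BL/6JRcc males of the same strain and housing. The 12 No NR mice received a semi-synthetic diet with 0 mg nicotinamide riboside, a form of vitamin B3, per kg for 18 weeks, and the 12 Ctrl NR mice received the same diet with 30 mg per kg. Both diets held 40% of energy as fat and 0.115% tryptophan, an amino acid from which the body can also make NAD, and all mice ate the Ctrl NR diet for 2 weeks first, starting at 8 or 9 weeks of age, which makes 28 or 29 weeks at the end. All were fasted and then refed for 4 hours before the tissue was taken. The comparison asks how white fat transcripts respond when dietary vitamin B3 is withdrawn. Each array set the Cy5-labelled RNA of 1 mouse against a Cy3-labelled pool of white adipose RNA that also held mice of other diets, with 4 female samples among them, so each value below is a log2 ratio of a mouse over that pool. A ratio below 0 means less than the pool, and ratios of different genes are not levels that can be set against each other.

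Per array, 34.5% to 50.7% of spots passed the background flag (median 44.7%). Precision is limited by how many arrays there are. The 24 arrays lay on 5 slides, each scanned at 1 time, with 1, 3, 3, 2 and 3 No NR mice and 2, 2, 2, 4 and 2 Ctrl NR mice on slides 1 to 5. All 14 adipocyte markers searched were measured. The 14 macrophage markers included 13 with a higher value under No NR (2 at an unadjusted p below 0.05 and 0 after adjustment), and the mean of the 14 ranged from -1.08 to 0.63 in No NR mice and from -1.74 to 0.63 in Ctrl NR mice. The 3 of 6 epididymis and testis markers that were measured had a mean from -2.57 to 1.14 in No NR mice and from -2.15 to 3.05 in Ctrl NR mice. The brown fat markers Elovl3 and Dio2 were below the filter, and the mean of Ucp1 and Cidea had a median of -0.89 in No NR mice and -0.92 in Ctrl NR mice. Because the RNA is of bulk tissue, fewer cells of a type and less RNA per cell cannot be told apart.

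Most mitochondrial ribosomal protein genes were slightly lower in No NR mice, but none passed the test for diet. Log2 fold changes (No NR minus Ctrl NR) ran from -0.22 for Mrpl20 to 0.32 for Mrpl9, which is 0.861-fold to 1.24-fold, with a median of -0.04. 54 members (70.1%) were lower and 23 were higher, against 53% of all features lower and a median of -0.01. With limma and Benjamini-Hochberg adjustment over all features, 0 of 77 members passed an adjusted p of 0.05, as did 0 of 20212 features (0% higher and 0% lower), and the lowest adjusted p was 0.114 for a member and 0.0562 for any feature. At an unadjusted p under 0.05, 2 members were higher, where 6.85% of all features were, and 10 were lower, where 7.42% were. In both directions together these were 12 members, or 15.6%, close to the 14.3% of all features. The values of the diets overlapped for each of the 77 members, and overlap was not counted over all features. The share of lower members depended on the scaling: with Agilent's processed signals 41 members were higher and the median turned to 0.01, while the median of all features was 0.04, and with median centring 9 were higher, at a median of -0.17 for members and -0.06 for all features.

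**Figure D1:**
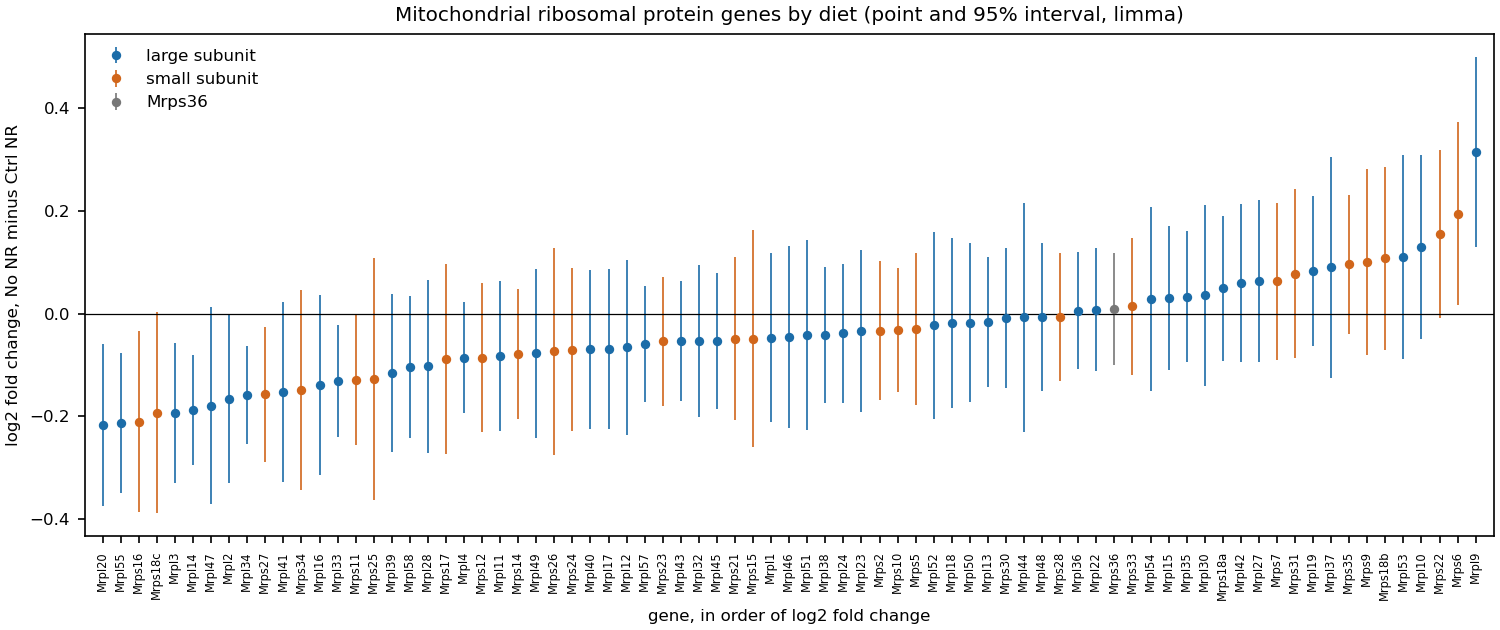
Log2 fold change (No NR minus Ctrl NR) of each of the 77 measured mitochondrial ribosomal protein genes on the vertical axis, with its 95% interval from limma, and the genes ordered along the horizontal axis by this value; colour gives the subunit. 54 points lie below 0 and 23 above, from -0.22 to 0.32, and most intervals cross 0.

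Within slides 1 to 5 the median of the members' differences was -0.10, -0.03, -0.06, -0.02 and -0.02, with 49, 45, 47, 46 and 41 of 77 below 0. These were 63.6%, 58.4%, 61.0%, 59.7% and 53.2% of the members, against 54.4%, 50.4%, 53.5%, 49.4% and 49.0% of all features, whose medians on the slides lay between -0.03 and 0.01. The mean over all members was -0.10 ± 0.0667 in No NR mice and -0.06 ± 0.0744 in Ctrl NR mice (SD, n = 12 each), so the difference was smaller than the spread between mice. This mean ranged from -0.21 to 0.01 in No NR mice and from -0.15 to 0.08 in Ctrl NR mice, and the diets overlapped.

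The large subunit had 36 of 50 members lower (median -0.04) and the small subunit had 18 of 26 lower (median -0.05). Mrps36, the remaining gene, carries a ribosomal name but is now known as a component of the alpha-ketoglutarate dehydrogenase complex, and it was at 0.01 (SE 0.05). By origin, 33 of 45 members with a bacterial counterpart were lower and 21 of 31 members particular to mitochondria were lower. Of the members with a bacterial counterpart, 11 were at an unadjusted p under 0.05 (24.4%), against 1 of the members without one (3.23%), where 14.3% of all features were. The difference between these classes was not tested.

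The member with the lowest p was Mrpl14, a protein of the face of the large subunit that meets the small subunit. Its log2 ratio had a lowest, median and highest value of -0.43, -0.31 and -0.10 in No NR mice, against -0.27, -0.11 and 0.10 in Ctrl NR mice. The median of the No NR mice lay below the lowest Ctrl NR mouse, but the groups overlapped. The difference was -0.19 (SE 0.05, 95% interval -0.30 to -0.08, adjusted p = 0.114 in limma). Mrpl9, a large-subunit protein with a bacterial counterpart, went the other way, with -0.11, 0.14 and 0.45 in No NR mice, against -0.51, -0.23 and 0.33 in Ctrl NR mice. The Ctrl NR mice ran from below every No NR mouse to above most of them, and the groups overlapped. The difference was 0.32 (SE 0.09, interval 0.13 to 0.50, adjusted p = 0.127 in limma). Without Ctrl NR mouse 68 it was 0.36, with an adjusted p of 0.0348 in limma, in a fit where 221 features were called in all. Mrpl34, a small basic protein of the large subunit, had -0.45, -0.35 and -0.18 in No NR mice, against -0.37, -0.15 and 0.02 in Ctrl NR mice. Its difference was -0.16 (SE 0.05, interval -0.25 to -0.06, adjusted p = 0.130 in limma). With array weights in limma, which give noisier arrays less weight, Mrpl14, Mrpl9 and Mrpl34 had adjusted p-values of 0.0410, 0.0447 and 0.0436, and they were the 3 members called, where 374 features were called in all.

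**Figure D2:**
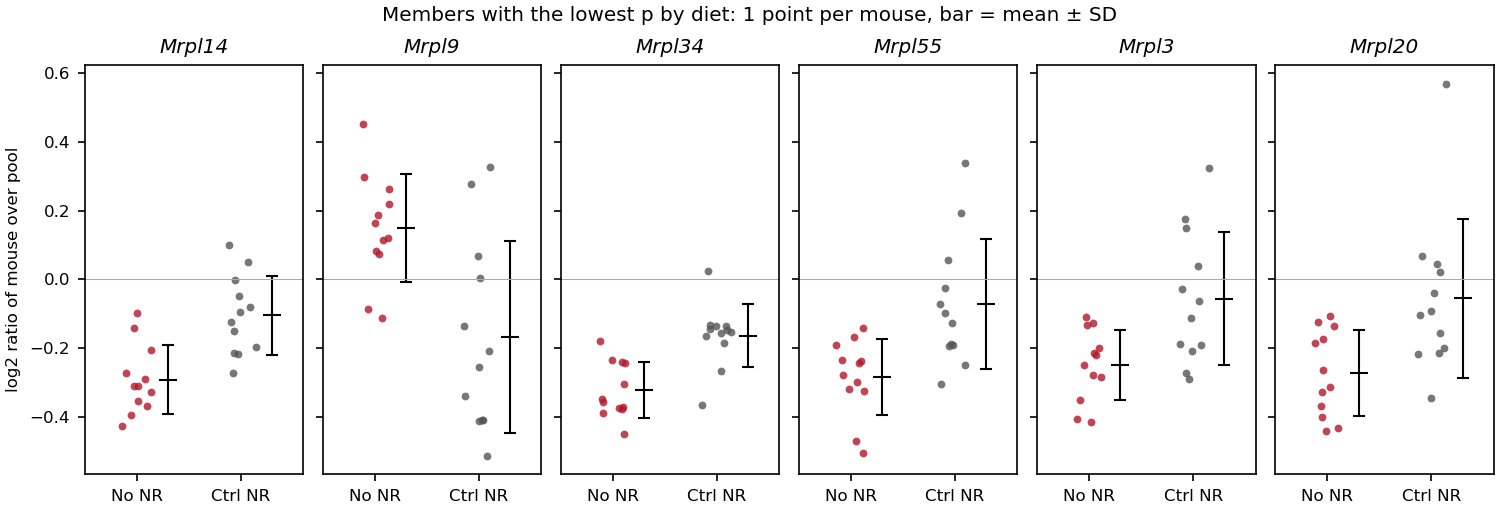
Log2 ratio of mouse over pool on the vertical axis for the 6 members with the lowest p, 1 point per mouse, No NR mice at the left and Ctrl NR mice at the right of each panel, with the mean and SD as bars. Mrpl9 is the member of these that is higher in No NR mice (0.32), and the diets overlap in every panel.

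The next 4 large-subunit members by p were all lower in No NR mice. Mrpl55 had -0.50, -0.26 and -0.14 in No NR mice, against -0.30, -0.11 and 0.34 in Ctrl NR mice (lowest, median and highest), a difference of -0.21 (SE 0.07). Mrpl3, which reaches towards the peptidyl transferase centre where peptide bonds form, had -0.41, -0.23 and -0.11 in No NR mice, against -0.29, -0.09 and 0.32 in Ctrl NR mice, a difference of -0.19 (SE 0.07). Mrpl20, whose bacterial counterpart binds early in the assembly of the large subunit, had -0.44, -0.29 and -0.11 in No NR mice, against -0.34, -0.10 and 0.57 in Ctrl NR mice, a difference of -0.22 (SE 0.08). Mrpl33 had -0.42, -0.24 and -0.17 in No NR mice, against -0.28, -0.16 and 0.15 in Ctrl NR mice, a difference of -0.13 (SE 0.05). In each of these 4 genes the highest No NR mouse stayed below 0, while the highest Ctrl NR mouse was above it. That Ctrl NR mouse was mouse 115 in all 4, whose array had the lowest share of spots above background (34.5%). The Ctrl NR medians of the 4 genes were also below 0. Their adjusted p-values in limma lay between 0.156 and 0.263.

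The next 3 members by p were of the small subunit. Mrps27, a pentatricopeptide repeat protein and the member particular to mitochondria with an unadjusted p under 0.05, had -0.36, -0.12 and 0.12 in No NR mice, against -0.22, 0.03 and 0.23 in Ctrl NR mice, a difference of -0.16 (SE 0.06). Mrps16 had -0.45, -0.13 and 0.15 in No NR mice, against -0.23, 0.02 and 0.51 in Ctrl NR mice, a difference of -0.21 (SE 0.09). Mrps6 was higher, with -0.30, -0.07 and 0.22 in No NR mice, against -0.58, -0.32 and 0.27 in Ctrl NR mice, a difference of 0.19 (SE 0.09). Their adjusted p-values in limma were 0.264, 0.265 and 0.305. Of these 10 members, 6 kept their direction on all 5 slides, as did 14 of all 77, the 6 included. The 10 were ranked by p in the same mice, which favours a shared direction, so this count is a description only.

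Among the members chosen for their role in translation, Mrpl3 above and Mrpl2 were those at an unadjusted p under 0.05. The stalk that recruits translation factors is built on Mrpl12, Mrpl10 and Mrpl11, whose differences were -0.07 (SE 0.08), 0.13 (SE 0.09) and -0.08 (SE 0.07). Around the decoding site of the small subunit, Mrps12 was at -0.09 and Mrps5 at -0.03. At the heart of the large subunit Mrpl2 was at -0.17 (SE 0.08, unadjusted p = 0.0458 and adjusted p = 0.338 in limma), while Mrpl27 was at 0.06. Along the exit tunnel, Mrpl4 was at -0.09, Mrpl23 at -0.03 and Mrpl24 at -0.04, and Mrpl45, which holds the ribosome to the inner membrane, was at -0.05. The paralogous proteins Mrps18a, Mrps18b and Mrps18c, of which the first sits in the large subunit, were at 0.05, 0.11 and -0.19, the last with an unadjusted p of 0.0531. With slide as a fixed block in limma, Mrpl2 was at -0.13 (unadjusted p = 0.111) and Mrps18c at -0.21 (unadjusted p = 0.0461). Mrps30, a large-subunit protein in spite of its name, was at -0.01. Of members whose human counterparts cause mitochondrial disease when mutated, Mrps22 was at 0.16 (SE 0.08), Mrps34 at -0.15 (SE 0.09) and Mrpl44 at -0.01 (SE 0.11). Mrpl41, which lacks a bacterial counterpart, was at -0.15 (SE 0.09), and at 0.04 with its second kept probe.

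Members differed in how widely they varied among mice of the same diet. The within-diet SD of the log2 ratio had a median of 0.182 over the members and 0.201 over all features. It was largest for Mrps25 (0.298), Mrpl44 (0.280) and Mrpl37 (0.269). It was smallest for Mrpl34 (0.0858), Mrpl14 (0.108) and Mrpl4 (0.109). These SDs are of the brightest probe of each gene. For Mrps25 the SE of the diet difference was 0.115 at that probe and 0.066 at the second kept probe (r between probes 0.348). For Mrpl4 it was 0.053 at the brightest probe and 0.092 at the second (r between probes 0.085). Mrpl14 and Mrpl34, both among the 3 members with the lowest p for diet, were thus also among the 3 least variable. The limma p rests on the difference over an error that grows with this SD, so the ranks are not independent. The 21 genes with a second kept probe showed how far a probe carries its gene. The mouse-to-mouse correlation of the pair of probes had a median of 0.398 and ran from -0.50 for Mrpl43 to 0.80 for Mrpl10, with 8 genes at 0.5 or above and 5 below 0. In 7 genes the diet difference had opposite signs at the probes, with 0 at an unadjusted p under 0.05 for both. Mrpl22, at 0.01 with its brightest probe, was at 0.34 with the other (unadjusted p = 0.00437 in limma), and the second probe of Mrpl10 was at 0.19 (unadjusted p = 0.0256 in limma).

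The members moved together from mouse to mouse only in part. With diet means removed, the mean Pearson r over the 2926 member pairs was 0.134, against 0.310 within a list of 78 oxidative phosphorylation genes, 0.198 within 79 cytosolic ribosomal protein genes and 0.586 within the 14 macrophage markers. It was 0.119 within the large subunit, 0.152 within the small subunit and 0.143 between them. Pairs with r above 0.5 numbered 364 (12.4%) and pairs below -0.5 numbered 35 (1.20%). The r of pairs was not computed over all features, so these values have no such share beside them. All points share their arrays, so anything that moves a whole array enters these correlations. The closest pair was Mrpl12 and Mrpl2 (r = 0.862), then Mrpl17 and Mrpl12 (0.840), Mrpl47 and Mrpl55 (0.835) and Mrpl46 and Mrps5 (0.830). The most opposed pair was Mrpl24 and Mrpl43 (-0.70). The 2 kept probes of Mrpl43 had r = -0.50 with each other, and only its brightest probe was used here. The mean over all pairs depended on the scaling, at 0.360 with processed signals and 0.919 with median centring.

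**Figure D3:**
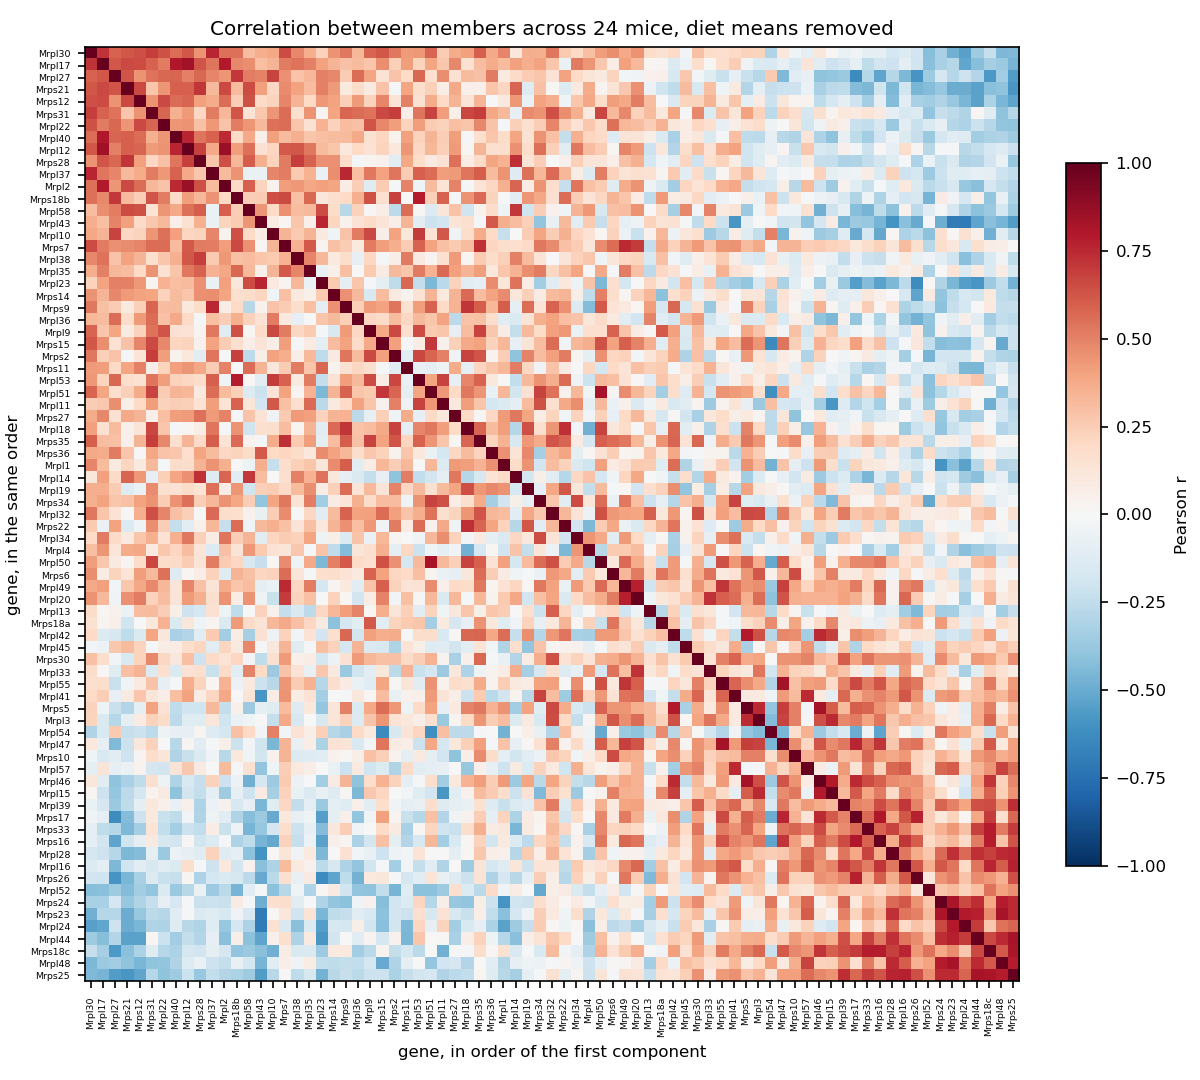
Pearson r across 24 mice, diet means removed, for each pair of the 77 members, which run in the order of their first principal component on both axes; red is positive and blue negative. A large upper-left block and a small lower-right block are red within themselves and partly blue between each other. The order comes from the same values, which favours such blocks.

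The first principal component of the members held 21.4% of their variance, with 51 members on one side, led by Mrpl30, Mrpl17 and Mrpl27, and 26 on the other, led by Mrps25, Mrpl48 and Mrps18c. It followed the second component of the features outside the members that had a ratio on every array (r = 0.748 in size, over 24 mice). The second component of the members held 19.2%, with 65 members on one side. With diet means removed, the first had r = 0.287 with the oxidative phosphorylation mean and the second 0.681. Of all members, Mrps7 (0.84), Mrps35 (0.81) and Mrpl32 (0.77) had the highest within-diet r with the mean of the others, and Mrpl54 (-0.17), Mrpl23 (-0.14) and Mrpl52 (-0.10) the lowest. Mrps7 lies in the head of the small subunit, Mrps35 is a small-subunit protein particular to mitochondria, and Mrpl32 needs cleavage by a protease of the inner membrane before it joins the ribosome. 72 of 77 members had an r above 0 and 18 an r of at least 0.5, and these counts were not made over all features.

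Mice with higher oxidative phosphorylation transcripts had higher mitochondrial ribosomal protein transcripts. Across 24 mice the mean of the members followed the mean of the 78 oxidative phosphorylation genes with Pearson r = 0.740 and Spearman rho = 0.671, at r = 0.556 within No NR mice and 0.836 within Ctrl NR mice, and r = 0.574 without the 2 mice farthest from the median. It ran against the mean of the cytosolic ribosomal protein genes (r = -0.764, rho = -0.713, and -0.757 without the 2 farthest mice) and against the macrophage markers (r = -0.597, rho = -0.534, and -0.487 without them), and with the adipocyte markers (r = 0.495, rho = 0.441, and 0.580 without them). Within No NR mice and within Ctrl NR mice the r was -0.691 and -0.815 with the cytosolic ribosomal protein mean, -0.373 and -0.716 with the macrophage markers, and 0.283 and 0.725 with the adipocyte markers. Across the other scalings (median centring, no background subtracted, processed signals and the authors' value table) the r with the oxidative phosphorylation mean lay between 0.869 and 0.992, and that with the adipocyte markers between 0.750 and 0.879. That with the cytosolic ribosomal protein mean was 0.964 with median centring, -0.07 with processed signals and -0.324 with the authors' value table. That with the macrophage markers was 0.741 with median centring. These scaling checks of the correlations were chosen after seeing the data. With slide means removed the 4 main values of r were 0.730, -0.817, -0.568 and 0.486. The share of spots above background had r = -0.04 with the members' mean. Within No NR mice this r was 0.227 and within Ctrl NR mice -0.219. The same share had r = -0.354 with the oxidative phosphorylation mean, 0.296 with the macrophage markers and -0.089 with the cytosolic ribosomal protein mean. The part of this share in the correlations was not tested. The large and small subunits' means followed each other at r = 0.902. The oxidative phosphorylation and cytosolic ribosomal protein means had r = -0.626 with each other. This was -0.323 within No NR mice and -0.825 within Ctrl NR mice, so the relations of the members to them are not separate. These are descriptions over mice that share arrays and pool, and the part of macrophage and fat cell content in them was not tested.

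**Figure D4:**
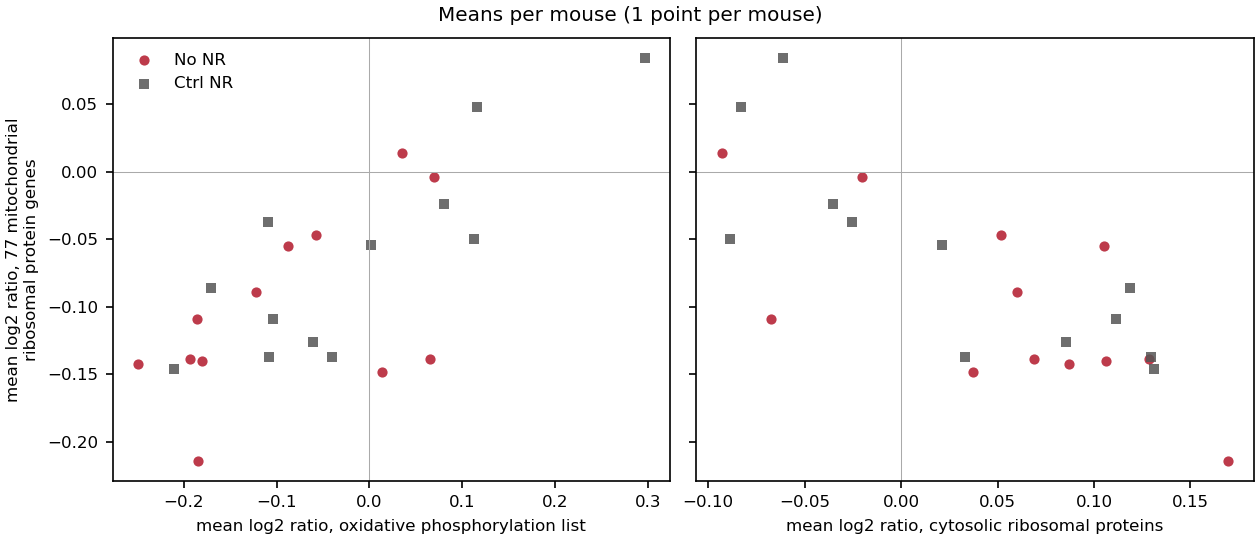
Mean log2 ratio of the 77 members on the vertical axis of both panels against the mean of the oxidative phosphorylation list (left) and of the cytosolic ribosomal protein list (right), 1 point per mouse, No NR mice as red circles and Ctrl NR mice as grey squares. The points rise in the left panel (r = 0.740) and fall in the right panel (r = -0.764), with both diets mixed along the trends.

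Fitted gene by gene in limma beside diet, 13 of 77 members (16.9%) rose with the oxidative phosphorylation mean at an adjusted p under 0.05, against 9.39% of all features, and 0 fell, against 15.5%. The steepest was Mrps34 at 1.29 (SE 0.29) log2 units per unit of the list mean, then Mrpl41 at 1.28 (SE 0.24), Mrpl51 and Mrpl49 at 1.18 and Mrpl20 at 1.17 (SE 0.22). Mrpl41 and Mrpl49 were read by their brightest probe, whose r with the second kept probe of the gene was -0.15 and 0.22. Mrpl20 had the lowest adjusted p among them, 0.000126 in limma. With the macrophage mean, 13 members fell, against 10.4% of all features, and 0 rose, against 16.6%. Mrps34 fell by 0.26 (SE 0.05) per unit of the macrophage mean, Mrpl51 by 0.23 and Mrpl41 by 0.21. With the cytosolic ribosomal protein mean, 11 members fell (14.3%), against 4.52% of all features, and 0 rose, against 6.18%. Here Mrpl37 was at -1.89 (SE 0.57), Mrps34 at -1.86 (SE 0.49) and Mrps15 at -1.83 (SE 0.56). 67 slopes on the oxidative phosphorylation mean were positive, and 62 on the macrophage mean and 66 on the cytosolic ribosomal protein mean were negative. Each list mean was fitted without the others, so the counts can overlap. These counts depended on the scaling. With median centring all 77 members rose with the oxidative phosphorylation mean, as did 92.8% of all features, and 77 rose with the cytosolic ribosomal protein mean, as did 92.5% of all features. With processed signals 46 rose with the oxidative phosphorylation mean, against 19.1% of all features, and 0 fell with the cytosolic one, against 1.79%. Without slide 4 the falling count with the cytosolic mean was also 0, against 0% of all features, and the counts with the oxidative phosphorylation and macrophage means were both 6, against 5.30% and 5.54% of all features. Leaving out No NR mouse 81 or Ctrl NR mouse 75 lowered the macrophage count to 8, against 9.80% and 9.09% of all features. Leaving out Ctrl NR mouse 115 lowered the oxidative phosphorylation count to 9 of 77, against 10.2% of all features.

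Nuclear genes for mitochondrial proteins are known to be regulated by NRF1, by GABPA of the ETS family, by YY1 and by the ERR receptors, and the promoters were searched for their motifs. RefSeq promoter windows (build GRCm38.p6) of 250 bases before to 50 after the gene start were found for 69 of the 78 genes. The ETS motif CCGGAAG, read by GABPA among other factors, was in the windows of 37.7% of these genes on either strand, against 12.9% of all protein-coding genes. The YY1 motif AAGATGGC was in 17.4%, against 3.57%, and the NRF1 motif, the palindrome in capitals in the Mrpl9 sequence, in 4.35% (3 genes), against 1.47%. The SP motif GGGCGG was in 49.3%, against 49.2%, and the ERR motif TCAAGGTCA in 0 of 69, against 0.377%. None of the motifs contains another, and a match is a description of the letters only. The 250 bases before the start are shown for the members with the lowest p, Mrpl14 (chr17:45686099-45686348, plus strand), Mrpl9 (chr3:94443086-94443335, plus strand) and Mrpl34 (chr8:71464676-71464925, plus strand), and for Mrpl32 (chr13:14613038-14613287, minus strand), one of the 3 members that moved most with the others. Capitals mark the motifs above on either strand.
Mrpl14: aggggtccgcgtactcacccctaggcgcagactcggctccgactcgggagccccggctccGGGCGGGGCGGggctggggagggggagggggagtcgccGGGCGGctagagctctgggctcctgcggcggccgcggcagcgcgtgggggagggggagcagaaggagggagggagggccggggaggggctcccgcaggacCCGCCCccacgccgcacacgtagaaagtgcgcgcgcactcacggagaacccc
Mrpl9: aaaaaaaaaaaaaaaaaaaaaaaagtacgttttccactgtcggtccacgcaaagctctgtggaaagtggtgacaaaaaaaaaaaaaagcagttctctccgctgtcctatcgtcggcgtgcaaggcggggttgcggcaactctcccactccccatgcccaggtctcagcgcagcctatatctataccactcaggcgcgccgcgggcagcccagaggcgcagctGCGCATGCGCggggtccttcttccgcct
Mrpl34: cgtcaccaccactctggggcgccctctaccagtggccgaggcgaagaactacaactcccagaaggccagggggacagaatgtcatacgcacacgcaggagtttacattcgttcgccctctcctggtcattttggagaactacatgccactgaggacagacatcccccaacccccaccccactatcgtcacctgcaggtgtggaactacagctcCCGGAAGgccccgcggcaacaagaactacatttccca
Mrpl32: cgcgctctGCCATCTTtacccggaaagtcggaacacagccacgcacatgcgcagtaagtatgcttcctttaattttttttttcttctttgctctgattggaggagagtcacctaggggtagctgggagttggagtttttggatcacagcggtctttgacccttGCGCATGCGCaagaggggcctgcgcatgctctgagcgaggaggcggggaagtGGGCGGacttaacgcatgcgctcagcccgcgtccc
In the bases shown, Mrpl14 holds SP motifs only, Mrpl9 an NRF1 motif 28 bases before the start, Mrpl34 an ETS motif 37 bases before it, and Mrpl32 an NRF1, an SP and a YY1 motif. Among these, Mrpl9 and Mrpl32 share the NRF1 motif, and their diet differences were 0.32 and -0.05.

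The 5 mitochondrial ribosomal proteins that carry other names all had a lower value in No NR mice, and 2 of the 5 did with processed signals. Gadd45gip1, a large-subunit protein also called CRIF1, was at -0.23 ± 0.224 in No NR mice and 0.01 ± 0.278 in Ctrl NR mice (SD, n = 12 each), a difference of -0.24 (SE 0.10, unadjusted p = 0.0213 and adjusted p = 0.266 in limma). Dap3 was at -0.14 (SE 0.09), and Chchd1, Ptcd3 and Aurkaip1 were at -0.03, -0.02 and -0.0041. In the 25 measured assembly factors 13 were lower and 12 higher (median -0.03). At an unadjusted p under 0.05 in limma 4 were lower and 0 higher, where 7.42% of all features were lower and 6.85% higher. The 4 were led by Eral1, a chaperone of the small-subunit RNA, at -0.22 (SE 0.07), and the GTPase Mtg2 at -0.27 (SE 0.10). Of 20 translation factors 11 were lower (median -0.03), with Taco1 at -0.19 and Guf1 at 0.20. Of 15 mitochondrial aminoacyl-tRNA synthetases 11 were lower (median -0.04), with Fars2 at -0.16 and Sars2 at -0.18. Of 27 import genes 17 were lower (median -0.05), with Timm44 at -0.18 and Timm17b at -0.14. At the same unadjusted threshold 1 translation factor, 3 synthetases and 4 import genes were lower, and 2, 0 and 2 were higher. None of the genes in these lists passed the adjusted threshold, and with processed signals the medians of the assembly, translation factor and import lists were above 0.

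The oxidative phosphorylation complexes receive the products of the mitochondrial ribosome, and the cytosolic ribosome makes the remaining proteins of the cell. Of the 78 oxidative phosphorylation genes 59 were lower in No NR mice (median -0.09), led by Uqcrc1, a core subunit of complex III, at -0.38 (SE 0.10, adjusted p = 0.0818 in limma) and Cox8b at -0.36. Of the 79 cytosolic ribosomal protein genes 33 were lower and 46 higher (median 0.01), with Rpl10 at 0.25 and Rps27 at -0.29. None of either list passed the adjusted threshold. The median of the oxidative phosphorylation list stayed below 0 under the other 4 scalings, from -0.26 to -0.05. That of the cytosolic ribosomal protein list changed sign, at -0.21 with median centring, -0.02 with no background subtracted and -0.06 with the authors' value table.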

How the data were processed

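RNA of 24 mice was hybridised to 2-colour Agilent arrays, Cy5 holding the mouse and Cy3 the pool. Per the file headers, the authors deposited the linear intensity of each spot with its flags, as written by Agilent Feature Extraction (version 10.7.3.1). Median spot signals were used. The authors' deposited value table holds log2 values on the scale of Cy5 brightness (26384 features, with a median of 8.04 in the first column), with its normalization not given in the sources used here, and was used as 1 alternative starting point.

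Here, normexp (offset 50) corrected the background and ratios were normalized by loess within arrays in limma 3.58.1 (R 4.3.3). Control and outlier-flagged spots were left out and spots of a probe averaged (55681 probes). A probe was kept with Cy5 flagged above background on 12 or more of the 24 arrays. Accessions were named through a RefSeq table (GRCm38.p6, 27235 probes with 1 symbol). The brightest probe stood for a gene. Diets were compared with lmFit and eBayes, with Benjamini-Hochberg adjustment over 20212 features. Slopes on a list mean came from fits with diet and that mean. In simulated data for No NR against Ctrl NR (19876 features, 200 changed), 9.4% of changes of 0.2 and 84.6% of changes of 0.5 on the log2 scale were called.

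The members and lists were chosen with earlier results of these data known. Named members were the 10 lowest p, the 3 highest and 3 lowest in r with the other members, the 3 largest and 3 smallest in SD, a set by role, and the 2 lowest p of each related list. Other members are named as examples of ranked values, after those were seen. The count of members falling with the cytosolic list was likewise added after the data were seen. Alternatives covered background, normalization, starting signals, the filter, outlier spots, probes per gene, variance model, array weights, slide, the macrophage mean as a covariate and leaving out slides or mice. The replicates were separate mice.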

Additional observations from a re-analysis of the deposited data

How the results depend on the processing

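No paired analysis was possible because the animal numbers in the labels are unique and the diets share none. Under the 21 alternative settings, the directions of the 10 members with the lowest p were kept in all. The 10 were ranked by p on the same arrays, which favours kept directions, so this is a description only. No member was called except under array weights (3, with 374 features). The features called were 7 with no background subtracted, 3 with the filter at all 24 arrays, 3 with limma-trend, 4 without slide 1 and 69 with the macrophage mean as a covariate. The members at an unadjusted p under 0.05 were 0 with median centring (1.10% of all features), 7 with Agilent's processed signals (16.7%) and 6 without slide 5 (8.22%). The members' median was -0.17 with median centring and 0.014 with processed signals, and 9 and 41 members were higher. Members falling with the macrophage mean numbered 0 with median centring (0.0346% of all features), 21 with processed signals (13.2%), 8 with no filter (3.81%), 8 without slide 1 (10.4%) and 6 without slide 4 (5.54%). Members rising with the oxidative phosphorylation mean numbered 77 with median centring (92.8%), 46 with processed signals (19.1%) and 6 without slide 4 (5.30%). Members falling with the cytosolic ribosomal protein mean numbered 0 with median centring (0.00495%), 19 with no background subtracted (10.004%), 0 with processed signals (1.79%), 18 with array weights (8.15%), and 3, 7, 0 and 7 without slides 2, 3, 4 and 5 (1.88%, 4.81%, 0% and 3.83%). Members rising with it numbered 77 with median centring (92.5%), 1 with no background subtracted (13.1%), 3 with processed signals (19.8%) and 2 with the authors' value table (12.7%). The cause of these changes was not tested.

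Leaving out each mouse in turn, chosen after seeing the data, gave 0 to 1 members called (Mrpl9 without Ctrl NR mouse 68, in a fit with 221 features called), 10 to 15 at an unadjusted p under 0.05 (12.0% to 17.9% of all features), 21 to 28 higher, a median from -0.05 to -0.03, 9 to 15 rising with the oxidative phosphorylation mean (7.79% to 10.2%), 8 to 14 falling with the macrophage mean (8.68% to 11.03%) and 8 to 13 falling with the cytosolic one (2.11% to 7.55%). The ends of a count and of its share need not come from the same mouse. The oxidative phosphorylation count of 9 came without Ctrl NR mouse 115, where the share of all features was 10.2%.

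Several named members close to 0 changed sign. With median centring Mrps7 was at -0.091, Mrpl54 at -0.11, Mrpl27 at -0.093, Mrps18a at -0.068, Mrps18b at -0.041 and Mrps36 at -0.12. With processed signals Mrpl52 was at 0.060, Mrpl23 at 0.0080, Mrpl44 at 0.12, Mrps5 at 0.16, Mrpl24 at 0.0022 and Mrps30 at 0.058. With array weights Mrpl52 was at 0.045, Mrpl44 at 0.049, Mrps5 at 0.0062 and Mrps30 at 0.029. Without slide 1 Mrpl52 was at 0.044, Mrpl54 at -0.000658, Mrpl44 at 0.046, Mrps5 at 0.030 and Mrps30 at 0.024. Without slide 5 Mrpl52 was at 0.020, Mrpl54 at -0.021, Mrps18a at -6.83e-05 and Mrps36 at -0.0053. With slide as a fixed block Mrpl23 was at 0.011 and Mrps30 at 0.0030. Without slide 3 Mrpl23 was at 0.024. With the macrophage covariate Mrpl54 was at -0.018, Mrps30 at 0.019 and Mrps36 at -0.0032. With no background subtracted Mrpl44 was at 0.013 and Mrps30 at 0.014. Without slide 4 Mrpl44 was at 0.040, Mrps18a at -0.024 and Mrps30 at 0.029. Without slide 2 Mrps30 was at 0.0061 and Mrps36 at -0.0085. Among list medians, whose scaling checks were chosen after seeing the data, that of the cytosolic ribosomal protein list was -0.21 with median centring, -0.016 with no background subtracted and -0.063 with the authors' value table. With processed signals the import list was at 0.0050, the translation factor list at 0.011, the assembly list at 0.021 and the members with other names at 0.016. The r of the member mean with median centring was 0.964 with the cytosolic ribosomal protein list and 0.741 with the macrophage list. Aquantile leaves each ratio as it is by construction. Signal over background limits Mrpl21 and the dimmer probes of Mrpl39 and Mrps2.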
